A study of Solanum lycopersicum with 36 samples.

Results

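The 200 genes described here were the genes of tomato roots with the largest rise under nitrogen (N) supply in the wild type (WT). A gene qualified if its mean value in the 3 +N root libraries of WT was at least 50 and if each of these libraries lay above each of the 3 -N root libraries of WT. Of 35872 listed genes and miRNA loci, 4842 met both conditions. The 200 with the largest difference between the mean log2(value + 1) at +N and at -N were taken, and are called members below. None of them was a miRNA locus.

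The study compared sdg33, sdg34 and WT plants (cultivar Castlemart II), grown for 2 days without N and then given medium with N (+N) or without N (-N) for 5 h. The +N medium held 1.2 mM KNO3, 0.8 mM Ca(NO3)2 and 0.2 mM NH4H2PO4. SDG33 and SDG34 encode histone lysine methyltransferases of the SET domain family, and each mutant was a single CRISPR line. Roots and shoots of each genotype under each condition gave 12 groups of 3 RNA-Seq libraries, each from a pool of 3 plants, so the p-values below measure the spread between such pools. In these bulk samples, fewer cells of a type and less RNA per cell cannot be told apart.

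Nitrate enters root cells through nitrate transporters and is reduced first by nitrate reductase to nitrite and then, in plastids, by nitrite reductase to ammonium. Nitrate also acts as a signal, and genes of its own uptake and reduction are among the known early targets of that signal in plants. In Arabidopsis, transcription factors of the LOB domain (LBD) and NIGT1 families belong to the same early response and restrain parts of it.

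The values are normalized counts on a scale that is the same in each library, and the number of reads behind a value is unknown. Every library sums to 19667069. Between replicates of a group, Pearson's r over the members ranged from 0.916 in -N roots of WT to 0.994, where members are not independent replicates. Replicate 2 of the -N roots of WT was the lowest of its group by at least 1 log2 unit in 26 members, against 1.87% of all expressed genes. Over all expressed genes the share was 2.04% for replicate 1 and 1.80% for replicate 3. These libraries chose the members, and a low -N library raises the difference that was ranked. The count of 26 is thus in part built in by the choice, and nothing is read from it. Without replicate 2 of the -N roots of WT, 179 of the same 200 genes would have been chosen. Leaving out any other single WT root library kept 183 to 190. The organ labels were checked with 6 photosynthesis genes, of which 5 were higher in every shoot library than in every root library, while the ranges of Solyc01g087040.2 overlapped, with 21 to 438 in roots and 139 to 7054 in shoots. The SDG33 transcript (Solyc04g057880.3) ranged in roots from 319 to 462 in sdg33 and from 392 to 525 in WT, and the SDG34 transcript (Solyc06g059960.3) from 77 to 174 in sdg34 and from 130 to 201 in WT. The edited bases themselves cannot be read from these values.

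In WT roots, the values that chose the members, the log2 difference ranged from 1.83 to 7.93 with a median of 2.41, against a median of -0.01 over the 22702 expressed genes, those that reached 10 or more in 3 or more of the 36 libraries. The member at rank 200, Solyc06g084380.3, averaged 835.3 at +N and 238 at -N (log2 difference 1.83). The first gene left out, Solyc03g019690.1, averaged 384 at +N and 108 at -N (also 1.83), and the next, Solyc12g006380.2, averaged 1663 at +N and 492.3 at -N (1.80), so no step in the values separates members from the genes just outside. The median over members of the mean value in +N roots was 513.5 in sdg33, 544.7 in sdg34 and 384 in WT. In -N roots this median was 84.5 in sdg33, 70.3 in sdg34 and 64.7 in WT. In shoots the members were low at both conditions, with medians at +N of 58.5 in sdg33, 63.3 in sdg34 and 46.7 in WT, and at -N of 43.3 in sdg33, 37.5 in sdg34 and 34.3 in WT.

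**Figure D1:**
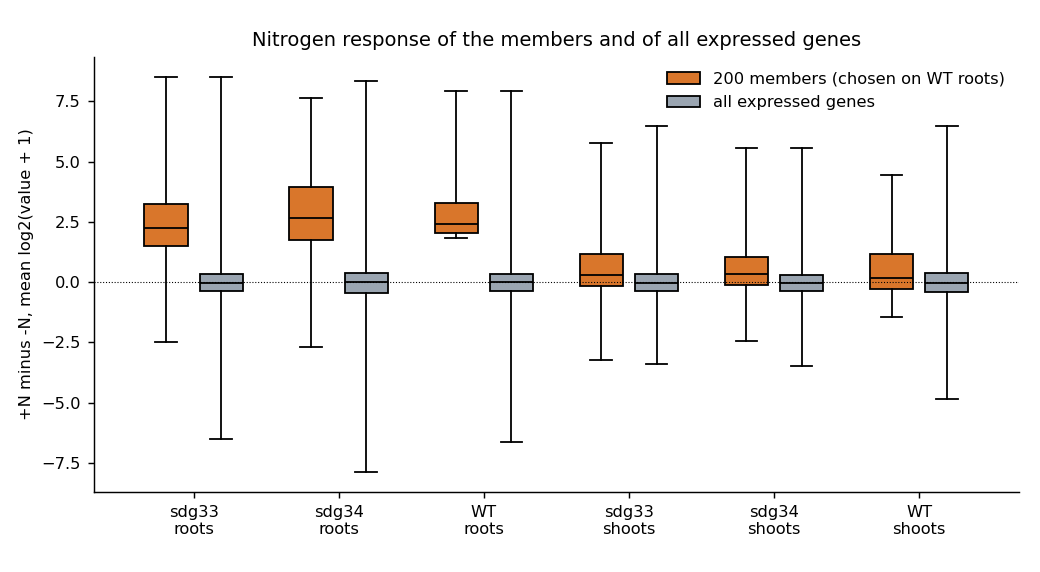
Log2 difference of +N minus -N for the 200 members (orange) and for the 22702 expressed genes (grey) in each genotype and organ. Boxes span the quartiles, lines mark the medians and whiskers reach the lowest and highest gene. The members of WT roots start at 1.83 because they were chosen there, and the members also sit above the other genes in both mutant roots.

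The members rose in the roots of both mutants, libraries that took no part in choosing them. In sdg33 roots, 182 of 199 members tested were higher at +N and 1 was lower, against 20.6% of all 20332 genes tested that were higher and 22.6% that were lower (limma, adjusted p below 0.05). In sdg34 roots, 192 of the 199 were higher and 1 was lower, against 25.8% and 26.8% of all genes. The median log2 difference of the members was 2.27 in sdg33 and 2.67 in sdg34, against -0.02 over all genes tested in sdg33. A rise of at least 1 log2 unit was measured in 173 members in sdg33, against 5.98% of the expressed genes, and in 183 in sdg34, against 8.15%. The same 180 members were called higher in both mutants, as were 17.5% of all genes tested. Of the 199 tested, 11 passed the filter on low values (10 or more in 3 or more of the 12 libraries) only through their +N libraries, so these had to be higher if they differed. By the libraries themselves, each +N value lay above each -N value for 189 members in sdg33 roots, against 14.8% of all listed genes, and for 192 members in sdg34 roots, against 17.0%.

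Nitrogen uptake and assimilation had 2 members. The nitrate transporter gene Solyc08g007430.2, at rank 2, had values of 1850, 671 and 1258 in +N roots of sdg33, against 10, 10 and 5 in its -N roots. In those of sdg34 there were 1670, 1359 and 1150 at +N, against 4, 11 and 5 at -N. No +N library came near a -N library, and replicate 2 of sdg33 was the lowest of the +N libraries. The log2 difference was 7.01 in sdg33 (SE 0.39, adjusted p = 6.3e-08) and 7.60 in sdg34 (SE 0.39, adjusted p = 1.64e-08). Nitrite reductase, Solyc10g050890.2, at rank 75, had 32837, 34712 and 32837 in +N roots of sdg33, against 1482, 1520 and 794 at -N. In sdg34 roots its values were 37498, 37682 and 35396 at +N, against 1358, 1141 and 822 at -N. Its log2 differences were 4.78 in sdg33 (SE 0.22, adjusted p = 1.08e-08) and 5.09 in sdg34 (SE 0.22, adjusted p = 3.92e-09). At -N, all 6 mutant root libraries of this gene lay below the 3 WT libraries, which had 5585, 3746 and 5278.

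The other described genes of N uptake and assimilation were not members. The list was drawn by keywords in descriptions and by genes that the study names. Of its 9 genes, members included, 8 were tested in roots. In sdg33, 4 were higher and 1 was lower, and in sdg34, 4 were higher and 3 lower. Not all are clear genes of this pathway. Lower in sdg34 was Solyc06g075510.3, described as APETALA2e (-0.85, SE 0.14, adjusted p = 0.000193). Also lower was Solyc06g075500.3, a major facilitator superfamily protein, with 4, 1 and 0 in +N roots of sdg34, against 13, 10 and 4 at -N. Nearly all descriptions come from genes that the study called in comparisons of genotypes on these same samples, so such counts are not independent evidence of a direction. Nitrate reductase, Solyc11g013810.2, had 36556, 40978 and 37498 in +N roots of sdg33, against 5704, 6008 and 4322 at -N, a log2 difference of 2.86 (SE 0.17, adjusted p = 1.31e-07). In sdg34 roots it had 51448, 48874 and 39889 at +N, against 5996, 4962 and 3602 at -N, a difference of 3.29 (SE 0.17, adjusted p = 2.08e-08). In WT roots it had 24078, 21600 and 27322 at +N, against 30399, 35396 and 30993 at -N, with every +N library below every -N library, so it met neither the order nor the size that the choice of members asked for. The transporter gene NRT1.1, Solyc08g078950.3, stood at rank 1607 in WT roots, with 8046, 8266 and 8592 at +N, against 4793, 5879 and 4678 at -N. It was lower at +N in both mutant roots, by -0.47 in sdg33 (SE 0.11, adjusted p = 0.00525) and by -0.43 in sdg34 (SE 0.11, adjusted p = 0.00604).

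**Figure D2:**
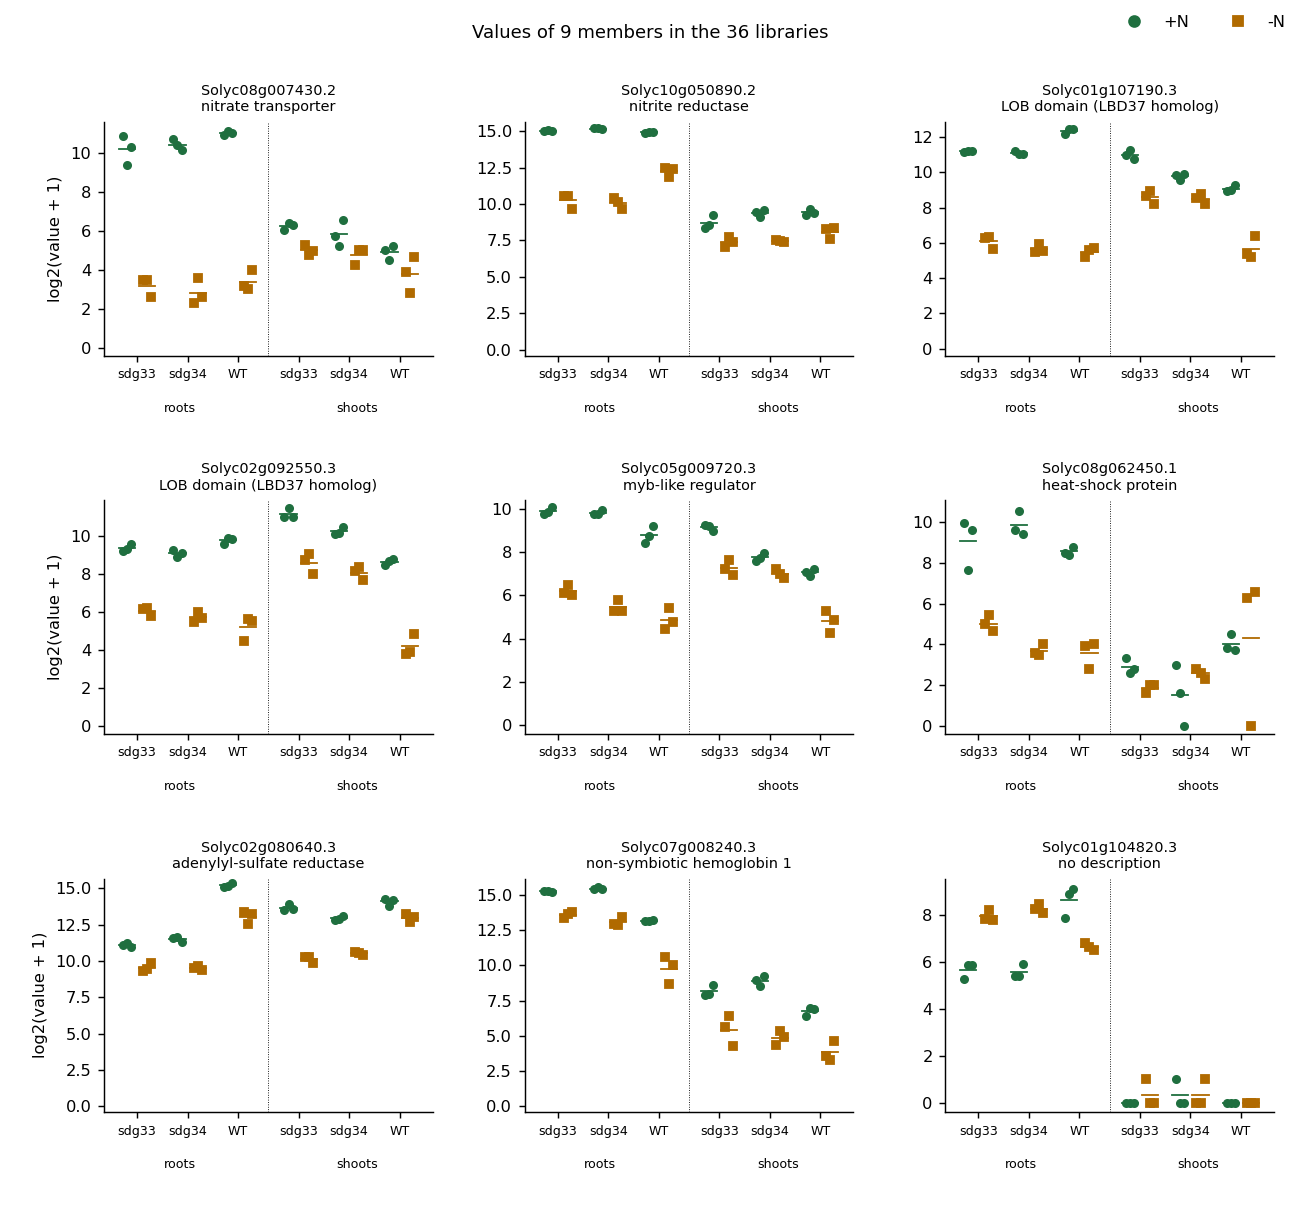
Values of 9 members in each of the 36 libraries as log2(value + 1), with +N (green circles) to the left of -N (brown squares) for sdg33, sdg34 and WT, roots left of the dotted line and shoots right of it. Short lines are group means of 3 libraries. The nitrate transporter gene is separated by N in all roots, whereas Solyc01g104820.3 in the last panel lies lower at +N in both mutants and higher at +N in WT.

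All 5 members described as transcription factors, the LBD genes included, were higher at +N in the roots of both mutants, as were most members. The 175 described transcription factor genes tested in roots went both ways, with 41 higher and 41 lower in sdg33 and 54 higher and 50 lower in sdg34. Both LBD members have LBD37 as their Arabidopsis homolog. Solyc01g107190.3, at rank 4, had 2270, 2387 and 2384 in +N roots of sdg33, against 76, 78 and 50 at -N, a log2 difference of 5.12 (SE 0.16, adjusted p = 5.37e-10). Roots of sdg34 had 2394, 2123 and 2116 at +N, against 43, 59 and 45 at -N, a difference of 5.48 (SE 0.16, adjusted p = 1.88e-10). The replicates of each group were close together, and the mutant +N libraries all lay below those of WT, which had 4564, 5526 and 5704. Solyc02g092550.3, at rank 17, differed by 3.31 in sdg33 (SE 0.17, adjusted p = 3.33e-08) and by 3.35 in sdg34 (SE 0.17, adjusted p = 1.59e-08), with +N values between 472 and 772 and -N values between 44 and 74 over both mutants. Of the 12 LBD genes with a description, 7 were tested in roots and 6 of these were higher in sdg33 and 5 in sdg34, with none lower. The gene at rank 31, Solyc05g009720.3, is described as a response regulator, and its Arabidopsis homolog is a myb-like factor of the NIGT1 family. It had 860, 934 and 1098 in +N roots of sdg33, against 68, 88 and 63 at -N, and 870, 868 and 988 in +N roots of sdg34, against 38, 55 and 38 at -N. The log2 differences were 3.71 in sdg33 (SE 0.16, adjusted p = 8.11e-09) and 4.37 in sdg34 (SE 0.16, adjusted p = 1.39e-09). Solyc02g090400.3, also described as a response regulator, rose by 2.25 in sdg33 (SE 0.24, adjusted p = 1.56e-05) and by 2.33 in sdg34 (SE 0.24, adjusted p = 6e-06). The homeobox-leucine zipper gene Solyc04g077220.3 rose by 1.42 in sdg33 (SE 0.19, adjusted p = 7.18e-05) and by 1.19 in sdg34 (SE 0.19, adjusted p = 0.00018).

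Solyc11g006710.2 is described as a cationic amino acid transporter, a class of carriers of lysine, arginine and related amino acids. It had 419, 669 and 632 in +N roots of sdg33, against 55, 38 and 49 at -N (log2 difference 3.56, SE 0.30, adjusted p = 1.94e-06). In sdg34 roots it had 546, 644 and 860 at +N, against 38, 20 and 50 at -N (4.28, SE 0.30, adjusted p = 1.98e-07). Solyc12g096480.1 is described as a glutamine dumper, a small membrane protein that in Arabidopsis raises the export of amino acids. Its rise was smaller, 0.90 in sdg33 (SE 0.20, adjusted p = 0.00354) and 0.62 in sdg34 (SE 0.20, adjusted p = 0.0217). Solyc02g086300.3, of the class I glutamine amidotransferase-like proteins, rose by 4.24 in sdg33 (SE 0.28, adjusted p = 2.21e-07) and by 5.18 in sdg34 (SE 0.28, adjusted p = 2.16e-08). Its +N root values of 1318, 1371 and 1672 in sdg33 and 1086, 1096 and 1612 in sdg34 all lay above those of WT, 174, 186 and 218.

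Members of the defence and stress list were 5 heat-shock genes and 1 late embryogenesis abundant (LEA) gene, and all 6 were higher at +N in the roots of both mutants, with a median of 3.81 in sdg33 and 4.86 in sdg34. Of the 49 described genes of this list that were tested in roots, 17 were higher and 8 lower in sdg33 (median 0.16), and 20 were higher and 12 lower in sdg34 (median 0.14). Small heat-shock proteins hold unfolding proteins, and LEA proteins are known from drying tissues. Solyc08g062450.1, at rank 10, whose Arabidopsis homolog is a class II small heat-shock protein, had 1010, 199 and 788 in +N roots of sdg33, against 31, 42 and 24 at -N. The roots of sdg34 showed 780, 1507 and 698 at +N, against 11, 10 and 15 at -N. The log2 differences were 4.06 in sdg33 (SE 0.49, adjusted p = 3.72e-05) and 6.19 in sdg34 (SE 0.49, adjusted p = 6.43e-07). The replicates of +N mutant roots were uneven for these genes. Averaged over the 5 heat-shock genes, log2(value + 1) was 10.06, 7.92 and 9.63 in +N roots of sdg33, against 5.54, 5.58 and 5.05 at -N. The same average was 9.78, 10.60 and 9.34 in +N roots of sdg34, against 5.09, 4.83 and 4.63 at -N. Replicate 2 of the +N roots of sdg33 was thus the lowest for the whole group, yet lay above each -N root library. That library was the lowest of its group by at least 1 log2 unit in 12 of the 200 members, and in 1.72% of all expressed genes. The LEA gene Solyc07g053360.3 rose by 3.64 in sdg33 (SE 0.29, adjusted p = 1.14e-06) and by 4.70 in sdg34 (SE 0.29, adjusted p = 6.84e-08).

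Sulfate assimilation was represented by adenylyl-sulfate reductase, Solyc02g080640.3 at rank 132, the enzyme that makes sulfite from activated sulfate. It had 2190, 2414 and 2006 in +N roots of sdg33, against 632, 704 and 942 at -N, a log2 difference of 1.55 (SE 0.14, adjusted p = 3.39e-06). In sdg34 roots it had 3039, 3220 and 2528 at +N, against 720, 810 and 672 at -N, a difference of 1.99 (SE 0.14, adjusted p = 2.06e-07). All mutant libraries lay below all WT libraries of the same condition, which had 34712, 37682 and 42541 at +N and 10866, 5972 and 9464 at -N. The gene Solyc01g006650.2, at rank 158, is described as ETHYLENE INSENSITIVE 3-like 3, known in Arabidopsis as SLIM1, a regulator of sulfate uptake and use. It had 68, 72 and 76 in +N roots of sdg33, against 50, 58 and 62 at -N (0.34, SE 0.15, adjusted p = 0.0749). In those of sdg34 there were 72, 76 and 76 at +N, against 44, 48 and 48 at -N (0.67, SE 0.15, adjusted p = 0.00197). WT roots had 660, 738 and 851 at +N, against 212, 129 and 228 at -N, so that every mutant root library, +N included, lay below every WT root library. As WT root libraries chose the members, these gaps to WT are descriptions and were not tested.

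A further set of members was picked out after the values had been seen, and whether they share a role was not tested. Non-symbiotic hemoglobin 1, Solyc07g008240.3, belongs to the plant hemoglobins that bind oxygen tightly and remove nitric oxide. It had 39889, 38944 and 37682 in +N roots of sdg33, against 10198, 12952 and 14013 at -N, and 43620, 47455 and 42541 in +N roots of sdg34, against 7822, 7286 and 10866 at -N. WT roots had 9198, 8956 and 9330 at +N, against 1535, 406 and 1027 at -N. All 3 -N root libraries of sdg33 lay above the +N root libraries of WT, and the -N root libraries of sdg34 overlapped with them. The log2 differences were 1.66 in sdg33 (SE 0.15, adjusted p = 3.09e-06) and 2.38 in sdg34 (SE 0.15, adjusted p = 7.77e-08). Pyruvate decarboxylase, Solyc02g077240.3, the first enzyme of ethanolic fermentation, rose by 1.08 in sdg33 (SE 0.31, adjusted p = 0.0142) and by 2.40 in sdg34 (SE 0.31, adjusted p = 3.78e-05). One of its -N libraries of WT, replicate 2, had 3381, against 22306 and 10914 in the others. The early nodulin 93 gene Solyc12g006560.2 had 857, 880 and 910 in +N roots of sdg33, against 478, 448 and 734 at -N (0.71, SE 0.31, adjusted p = 0.0862). In sdg34 roots it had 1161, 1168 and 1203 at +N, against 201, 90 and 288 at -N (2.76, SE 0.31, adjusted p = 1.18e-05). Its +N and -N libraries did not overlap in either mutant, and the rise in sdg33 missed the threshold.

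The SAUR genes are a family of small proteins known as early auxin targets. Of 3 SAUR members, 1 was higher in sdg33 roots and 2 were higher in sdg34 roots. Of the 30 described auxin genes tested in roots, 10 were higher and 2 lower in sdg33, and 11 were higher and 3 lower in sdg34. Solyc08g079150.1 rose by 3.08 in sdg33 (SE 0.37, adjusted p = 3.46e-05) and by 3.62 in sdg34 (SE 0.37, adjusted p = 5.03e-06). Solyc07g066560.1 had 102, 93 and 102 in +N roots of sdg33, against 74, 82 and 74 at -N (0.36, SE 0.24, adjusted p = 0.244). Roots of sdg34 had 104, 82 and 182 at +N, against 58, 78 and 78 at -N (0.70, SE 0.24, adjusted p = 0.0255). This last call was lost without replicate 3 at +N or without replicate 1 at -N of sdg34 (adjusted p up to 0.101). Solyc05g056430.2, SAUR56, had 13, 14 and 15 in +N roots of sdg33, against 9, 10 and 4 at -N (0.87, SE 0.37, adjusted p = 0.076), and in sdg34 roots 14, 15 and 10 at +N, against 16, 17 and 8 at -N (-0.02, SE 0.37, adjusted p = 0.967). In WT roots, SAUR56 had 74, 114 and 97 at +N, against 17, 22 and 6 at -N, so the +N values of both mutants lay within the range of -N values of WT. Of the 1361 described genes tested in roots, 334 were higher and 287 lower in sdg33, and 401 were higher and 341 lower in sdg34. Over all 51 members with a description, 43 were higher in sdg33 roots and 49 in sdg34 roots, and none was lower. As 48 of these 51 descriptions come from lists of genes that the study called between genotypes, and the others from genes that it names, they do not stand for all members.

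Most of the strongest members have no description in the sources used here. Solyc03g119180.1, at rank 5, had 816, 1141 and 1052 in +N roots of sdg33, against 4, 3 and 0 at -N, with a log2 difference of 8.52 (SE 0.51, adjusted p = 1.17e-07), the largest of all members in sdg33. In sdg34 roots it had 1134, 944 and 1046 at +N, against 8, 5 and 2 at -N (7.57, SE 0.51, adjusted p = 1.62e-07). All its -N values lay below 10, so it passed the filter only through its +N libraries and had to be higher if it differed. The size of its log2 differences rests on these low -N values. The first in rank, Solyc09g072750.2, had 109, 190 and 117 in +N roots of sdg33, against 0, 1 and 3 at -N, and 378, 310 and 394 in +N roots of sdg34, against 1, 2 and 0 at -N. It was close to absent from -N roots of all genotypes, so in the mutants it too passed the filter only through its +N libraries. Solyc03g083440.3, at rank 134, was among the 3 highest genes of each of the 9 +N root libraries. It had 210242, 264554 and 264554 in +N roots of sdg33, against 31735, 35396 and 28174 at -N, and 264554, 264554 and 180398 in +N roots of sdg34, against 16912, 13379 and 15713 at -N. It held the top value of the common scale, 264554, in 4 root libraries, so its +N values cannot exceed that ceiling and its log2 differences of 2.95 in sdg33 (SE 0.18, adjusted p = 1.1e-07) and 3.93 in sdg34 (SE 0.18, adjusted p = 5.3e-09) are capped by it.

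**Figure D3:**
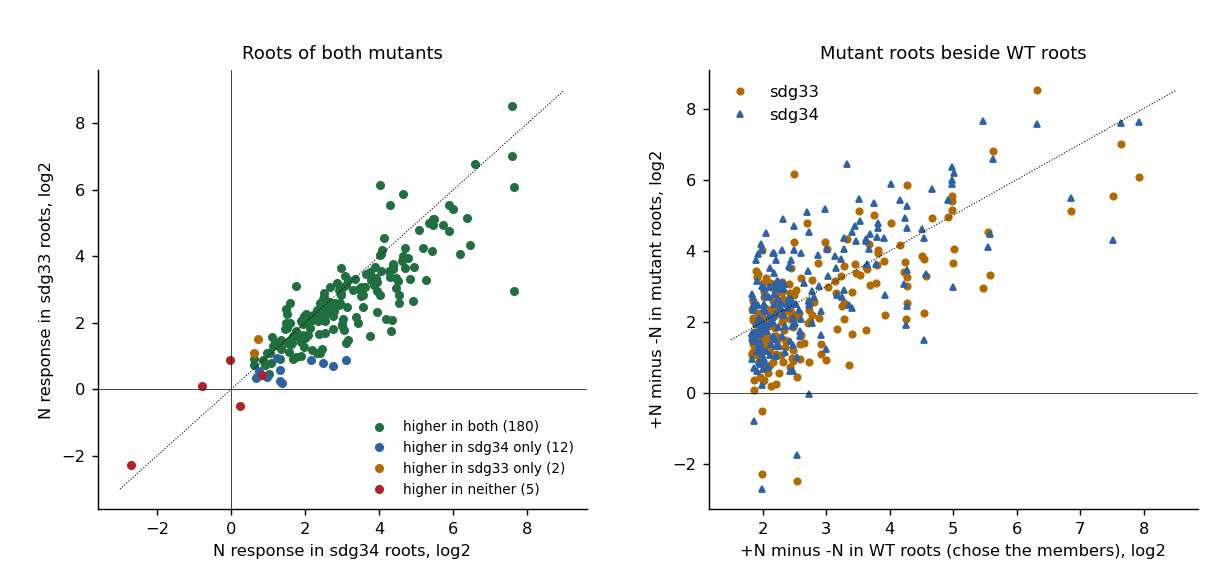
Log2 differences of +N minus -N in roots. Left, sdg34 (x axis) beside sdg33 (y axis) for the 199 members tested, coloured by the mutants in which the member was called higher. Right, each mutant (y axis) beside WT (x axis), the values of which chose the members. The dotted lines mark equal differences, and 1 member, at the lower left, was lower at +N in both mutants.

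A few members did not rise in the mutants. Solyc01g104820.3, at rank 165, was lower at +N in both, with 38, 57 and 57 in +N roots of sdg33, against 225, 298 and 222 at -N, and 41, 42 and 60 in +N roots of sdg34, against 304, 355 and 273 at -N. WT roots had 236, 481 and 552 at +N, against 112, 98 and 90 at -N. The order of the conditions in both mutants was thus the reverse of that in WT, with no overlap in any of the 3 genotypes. The log2 differences were -2.28 in sdg33 (SE 0.21, adjusted p = 3.47e-06) and -2.69 in sdg34 (SE 0.21, adjusted p = 4.39e-07). The next member along chromosome 1, Solyc01g104800.2, was too low in mutant roots to be tested, with 0, 1 and 0 in +N roots of sdg33, against 5, 13 and 3 at -N, and 0, 5 and 3 in +N roots of sdg34, against 6, 9 and 12 at -N. WT roots had 86, 150 and 154 of it at +N, against 37, 15 and 16 at -N. Neither gene has a description in the sources used here. The other 4 members that were called higher in neither mutant were Solyc01g106600.2, Solyc04g009640.3, SAUR56 and Solyc12g096310.2, a gene for a DUF599 protein of unknown function. Solyc12g096310.2 had 10, 22 and 17 in +N roots of sdg33, against 20, 10 and 15 at -N, and 8, 12 and 8 in +N roots of sdg34, against 14, 34 and 9 at -N. WT roots had 272, 256 and 318 at +N, against 68, 74 and 90 at -N, so that the mutant libraries were all below those of WT.

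Where the calls of the mutants differed, the tests of the difference itself mostly did not pass. Over all 20332 genes tested, 5248 were called higher in sdg34 roots, 4195 in sdg33 roots and 3555 in both. Calls in sdg34 alone thus outnumbered those in sdg33 alone over all genes, as they did among the members. Called in sdg34 roots and not in sdg33 roots were 12 members, among them both early nodulin 93 genes, ETHYLENE INSENSITIVE 3-like 3 and Solyc04g009870.1, a beta-carotene hydroxylase of xanthophyll synthesis. Called in sdg33 roots and not in sdg34 roots were 2, Solyc08g079880.2 and Solyc10g006040.1. For none of these 14 did the difference between the mutants pass. The difference of the N response in sdg34 minus that in sdg33 was called for 3 members, all larger in sdg34, against 0.0492% of all genes (limma, 60 members larger and 4 smaller at an unadjusted p below 0.05, against 7.31% and 7.24% of all genes). Each of the 3 had been called higher in both mutants. Solyc06g072210.1 had 1322, 1858 and 1613 in +N roots of sdg34, against 9, 4 and 9 at -N, and 1094, 810 and 872 in +N roots of sdg33, against 114, 115 and 122 at -N. The gap between the mutants was largest at -N, and the difference of the log2 differences was 4.68 (SE 0.33, adjusted p = 0.000103). Solyc01g111880.3, described as MAP kinase kinase kinase 11, a class of signalling kinases, had 6940, 7313 and 9100 in +N roots of sdg34, against 354, 314 and 330 at -N, and 6876, 6698 and 7856 in +N roots of sdg33, against 948, 1069 and 986 at -N. The +N libraries of both mutants overlapped, the -N libraries did not, and the difference was 1.70 (SE 0.14, adjusted p = 0.000359). Solyc02g083730.3 differed by 2.07 (SE 0.28, adjusted p = 0.0298), a call lost without any 1 of 6 of the 12 libraries (adjusted p from 0.00112 to 0.105). The count of 3 became 22 without replicate 3 of the -N roots of sdg34 and 9 without replicate 1 of the -N roots of sdg33.

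In the mean over both N conditions, 3 members were higher and 8 lower in sdg34 roots than in sdg33 roots, against 0.457% and 0.521% of all genes. Solyc06g066710.1 was higher, with 174, 152 and 172 in +N roots of sdg34 and 84, 146 and 94 in +N roots of sdg33, and with 6, 6 and 5 in -N roots of sdg34 and 1, 2 and 0 in -N roots of sdg33 (1.26, SE 0.25, adjusted p = 0.0362), a call lost without any 1 of 8 of the 12 libraries (adjusted p up to 0.112). All its -N values lay below 10, so the size of this difference rests in part on low values. Solyc01g080020.2, an aspartyl protease family gene, was lower, with 1378, 1514 and 2604 in +N roots of sdg34 and 2100, 2372 and 2600 in +N roots of sdg33, and with 68, 50 and 65 in -N roots of sdg34 and 167, 260 and 298 in -N roots of sdg33 (-1.18, SE 0.17, adjusted p = 0.00913). For this gene only the -N libraries of the mutants did not overlap.

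Mutant minus WT differences of the root N response are given by description alone, as the WT root values chose the members. The median over members of mutant minus WT was -0.33 in sdg33, from -5.00 to 3.65, and 0.05 in sdg34, from -4.68 to 3.11. A response at least 1 log2 unit smaller than in WT was found for 53 members in sdg33, against 3.74% of expressed genes, and for 35 in sdg34, against 5.02%. A response at least 1 unit larger was found for 17 members in sdg33, against 5.07%, and for 40 in sdg34, against 6.29%. Genes with a large difference in WT were chosen, so mutant minus WT differences are in part pushed down by the choice. No test was made on them, and nothing is read from the gap between members and expressed genes.

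The levels themselves lay far from WT in both mutants for a minority of members. These levels include the WT root values that chose the members, and both mutants are set against the same WT libraries, so a gap between the shares of members and of expressed genes is in part built in by the choice and nothing is read from it. At +N, 15 members were at least 2 log2 units higher than WT in both mutants (7.5%, against 1.70% of expressed genes) and 13 were at least 2 units lower (6.5%, against 0.612%). At -N, 13 were higher (6.5%, against 0.493%) and 8 were lower (4%, against 0.304%). Far above WT was Solyc02g067440.3, described as DB114, a protein of giant cells that root-knot nematodes (Meloidogyne) induce. It had 20076, 24078 and 17033 in +N roots of sdg33 and 26908, 28517 and 23348 in +N roots of sdg34, against 448, 340 and 324 in +N roots of WT. In -N roots it had 4776, 6024 and 6728 in sdg33 and 3888, 2856 and 5208 in sdg34, against 88, 18 and 40 in WT. Even the lowest -N library of a mutant lay above the highest +N library of WT, and yet the gene rose with N in both mutants, by 1.80 in sdg33 (SE 0.20, adjusted p = 1.69e-05) and by 2.76 in sdg34 (SE 0.20, adjusted p = 2.62e-07). Solyc02g090120.1, labelled with low quality as a protein like one that interacts with an inositol trisphosphate receptor, showed the same order, with 5433, 5583 and 5067 in +N roots of sdg33 and 6090, 5744 and 6014 in +N roots of sdg34, against 134, 120 and 156 in +N roots of WT. Its -N roots had 2296, 2396 and 3481 in sdg33 and 1562, 1262 and 2120 in sdg34, against 31, 14 and 31 in WT. Far below WT were adenylyl-sulfate reductase, ETHYLENE INSENSITIVE 3-like 3 and Solyc09g061700.3, which had 12, 16 and 17 in +N roots of sdg33 and 19, 21 and 24 in +N roots of sdg34, against 370, 435 and 407 in +N roots of WT.

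When the rule was applied to each mutant's own roots, its list of 200 genes held 105 of the members in sdg33 (52.5% of either list) and 90 in sdg34 (45%). In both mutant lists were 78 members and in neither were 83. The same rule in shoots gave lists with 27 members in sdg33, 25 in sdg34 and 20 in WT, and 9 members were in all 3 shoot lists, with 37 in at least 1. These lists depend on a fixed length of 200 and were not tested.

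In shoots the members were a mixed group. Of the 200, 8 had a value of 0 in all 18 shoot libraries and 35 stayed below 10 in each of them, and 158 were tested. In sdg33 shoots, 57 members were higher at +N and 6 lower, against 12.7% and 13.8% of all genes tested. In sdg34 shoots, 56 were higher and 4 lower, against 11.1% and 11.0%. In WT shoots, 62 were higher and 5 lower, against 15.0% and 15.4%. The median log2 difference of the members tested was 0.51 in sdg33, 0.55 in sdg34 and 0.37 in WT. The 5 lower members of WT became 14 without replicate 2 of its -N shoots and 8 without replicate 2 of its +N shoots. In all 3 genotypes 39 members were higher, against 6.66% of all genes tested, and in at least 1 genotype 79, against 21.3%. Higher in the +N roots of both mutants and in the +N shoots of all 3 genotypes were 36 members, against 4.64% of the genes tested in both organs. These 3 shoot tests came from 1 fit of 18 libraries and share their estimate of the spread. By the libraries themselves, each +N value lay above each -N value for 73 members in sdg33 shoots (12% of all listed genes), for 77 in sdg34 shoots (12.1%) and for 60 in WT shoots (10.2%), and below for 17 (14.7%), 13 (13.8%) and 6 (11.8%). Without a call in any shoot test were 109 members, including the 42 that were not tested.

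Nitrite reductase and some of the regulators were among the members that rose in shoots. Of the 5 transcription factor members, 4 were higher at +N in sdg33 shoots, 3 in sdg34 shoots and 3 in WT shoots, and the homeobox-leucine zipper gene was called in none of these. Nitrite reductase had 321, 385 and 612 in +N shoots of sdg33, against 133, 210 and 165 at -N (1.34, SE 0.23, adjusted p = 0.000294). In sdg34 shoots it had 700, 554 and 780 at +N, against 182, 178 and 164 at -N (1.94, SE 0.23, adjusted p = 8.2e-06). The +N and -N libraries did not overlap in either mutant. The nitrate transporter gene was low, with 66, 84 and 78 in +N shoots of sdg33, against 38, 26 and 30 at -N (1.26, SE 0.42, adjusted p = 0.0316), and 52, 37 and 92 in +N shoots of sdg34, against 18, 31 and 32 at -N (1.07, SE 0.42, adjusted p = 0.074). The sdg33 call was lost without +N shoot library 2 or 3 of sdg33 (adjusted p = 0.0952 and 0.0829) and without its -N shoot library 2 or 3 (adjusted p = 0.101 and 0.0787). Solyc02g092550.3, the second LBD37 homolog, had 2036, 2866 and 2048 in +N shoots of sdg33, against 424, 525 and 252 at -N, and 1088, 1147 and 1433 in +N shoots of sdg34, against 287, 327 and 203 at -N. WT shoots had 357, 404 and 445 at +N, against 13, 14 and 28 at -N. Each mutant library was higher than the WT libraries of its condition, and the rise was 2.58 in sdg33 (SE 0.27, adjusted p = 1.5e-06), 2.18 in sdg34 (SE 0.27, adjusted p = 1.17e-05) and 4.46 in WT (SE 0.27, adjusted p = 1.79e-09). Nitrate reductase, not a member, rose in shoots by 2.05 in sdg33 (SE 0.23, adjusted p = 2.62e-06) and by 2.26 in sdg34 (SE 0.23, adjusted p = 1.22e-06), against a difference of 0.06 in WT (SE 0.23, adjusted p = 0.879). Its response exceeded that of WT by 1.99 in sdg33 shoots (SE 0.33, adjusted p = 0.00794) and by 2.20 in sdg34 shoots (SE 0.36, adjusted p = 0.00443). The -N shoots of WT were uneven for this gene, with 48874, 31735 and 19773, a range that held all +N values of 35396, 27322 and 35724.

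In shoots of both mutants the largest rise among the members was that of Solyc01g108710.3. This gene, its neighbour Solyc01g108700.3 and Solyc10g050510.1 are described as like a subunit of the transcription initiation factor TFIID, and the annotation marks Solyc01g108700.3 and Solyc10g050510.1 as low quality. Solyc01g108710.3 had 214, 416 and 340 in +N shoots of sdg33, against 2, 14 and 3 at -N (5.79, SE 0.55, adjusted p = 4.96e-07). In sdg34 shoots it had 90, 52 and 88 at +N, against 1, 1 and 0 at -N (5.57, SE 0.55, adjusted p = 9.55e-07), and in WT shoots 8, 10 and 8 at +N, against 0, 0 and 0 at -N (3.27, SE 0.55, adjusted p = 0.000154). The +N libraries of the mutants were all above those of WT. Solyc01g108700.3 rose by 4.25 in sdg33 (SE 0.78, adjusted p = 0.000443) and by 3.35 in sdg34 (SE 0.78, adjusted p = 0.00412). Both neighbours may share reads if their sequences are alike, which was not tested. Members that fell in shoots included Solyc02g078380.3, described as TSJT1, with 384, 247 and 316 in +N shoots of sdg33, against 571, 674 and 452 at -N (-0.84, SE 0.23, adjusted p = 0.00955), a call lost without replicate 2 at +N or at -N of sdg33 (adjusted p up to 0.0624), although in sdg33 roots it was higher, with 8211, 8211 and 8511 at +N, against 2826, 3923 and 5265 at -N (adjusted p = 0.00201). None of the 6 heat-shock and LEA members was called for a N response in shoots, and Solyc08g062450.1 had 13, 22 and 12 in +N shoots of WT, against 78, 0 and 95 at -N, with replicate 2 far from the others.

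Set beside WT in shoots, libraries that the choice of members did not use, members were called in both directions at shares near those of all genes. In sdg33 shoots, in the mean over both N conditions, 52 of 153 members tested were higher than in WT and 39 lower, against 31.1% and 27.0% of all genes. In sdg34 shoots, 50 of 152 were higher and 46 lower, against 27.9% and 24.9%. Of the 150 members tested in both comparisons, 41 were higher in both mutants and 35 lower in both, against 23.9% and 21.7% of all genes, and both comparisons use the same 6 WT libraries. The heat-shock and LEA members were lower than in WT for 5 of 6 in sdg33 shoots and for 4 of 6 in sdg34 shoots, and of the described defence and stress genes 37 of 60 were lower in sdg33 and 33 of 59 in sdg34. Solyc06g008620.1, described as tolB-like, had 851, 620 and 630 in +N shoots of sdg33 and 402, 234 and 401 in +N shoots of sdg34, against 16, 30 and 30 in +N shoots of WT. At -N it had 388, 518 and 326 in sdg33 and 307, 282 and 292 in sdg34, against 8, 3 and 17 in WT. Mutant and WT libraries were far apart at both conditions, by 5.16 in sdg33 (SE 0.31, adjusted p = 4.67e-09) and by 4.41 in sdg34 (SE 0.31, adjusted p = 2.22e-08). Acyl-protein thioesterase 2, Solyc12g042890.2, was lower, with 46, 52 and 43 in +N shoots of sdg33 and 39, 66 and 61 in +N shoots of sdg34, against 480, 563 and 508 in +N shoots of WT. Its log2 fold change was -3.71 in sdg33 (SE 0.17, adjusted p = 3.6e-10) and -3.71 in sdg34 (SE 0.20, adjusted p = 1.63e-09). In roots this gene rose at +N, by 1.18 in sdg33 (SE 0.18, adjusted p = 0.000218) and by 2.18 in sdg34 (SE 0.18, adjusted p = 8.95e-07).

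The N response of shoots differed from WT for few members. In sdg33 it was larger than in WT for 3 members and smaller for 6, against 0.632% and 1.36% of all genes (limma, 17 of 153 larger and 19 smaller at an unadjusted p below 0.05, against 7.97% and 9.55% of all genes). In sdg34 it was larger for 6 and smaller for 11, against 1.8% and 2.83% (21 of 152 larger and 23 smaller at an unadjusted p below 0.05, against 9.89% and 10.8% of all genes). Adenylyl-sulfate reductase had 11890, 15713 and 12094 in +N shoots of sdg33 and 7418, 7514 and 8836 in +N shoots of sdg34, against 20008, 14439 and 19084 in +N shoots of WT. In -N shoots it had 1236, 1264 and 922 in sdg33 and 1595, 1532 and 1388 in sdg34, against 9706, 6620 and 8230 in WT. The gap to WT was wide at -N and narrower at +N, and the response was larger than in WT by 2.41 in sdg33 (SE 0.25, adjusted p = 0.000266) and by 1.27 in sdg34 (SE 0.21, adjusted p = 0.00476). Solyc03g115990.2 had 1388, 1663 and 1678 in +N shoots of sdg33, against 960, 940 and 968 at -N, and 1416, 1557 and 1514 in +N shoots of sdg34, against 824, 1076 and 852 at -N. In WT shoots it had 2152, 2341 and 2262 at +N, against 3762, 3454 and 4166 at -N. N raised it in both mutants and lowered it in WT, with a difference of 1.46 in sdg33 (SE 0.16, adjusted p = 0.000266) and of 1.46 in sdg34 (SE 0.17, adjusted p = 0.000281).

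Both LBD37 homologs and the myb-like gene had a smaller response than WT in sdg34, and in sdg33 this was called for Solyc02g092550.3 alone. Solyc02g092550.3 responded less than in WT by 1.88 log2 units in sdg33 (difference -1.88, SE 0.41, adjusted p = 0.0333, lost without any 1 of 9 of the 12 libraries) and by 2.28 in sdg34 (difference -2.28, SE 0.36, adjusted p = 0.00364). Solyc01g107190.3 had 1986, 2419 and 1709 in +N shoots of sdg33, against 406, 481 and 295 at -N, and 904, 762 and 951 in +N shoots of sdg34, against 377, 433 and 292 at -N. WT shoots had 486, 508 and 612 at +N, against 40, 35 and 84 at -N. The mutants were above WT at both conditions, and the response of sdg34 was smaller than that of WT by 2.16 (difference -2.16, SE 0.37, adjusted p = 0.00499), while in sdg33 the difference was -1.03 (SE 0.39, adjusted p = 0.187). For Solyc05g009720.3 the difference was -0.40 in sdg33 (SE 0.37, adjusted p = 0.621) and -1.53 in sdg34 (SE 0.36, adjusted p = 0.0277), with 194, 210 and 247 in +N shoots of sdg34, against 148, 128 and 111 at -N, and 136, 120 and 147 in +N shoots of WT, against 38, 18 and 28 at -N. The aspartyl protease family gene Solyc01g080020.2 had 1645, 1202 and 1552 in +N shoots of sdg34, against 981, 1020 and 976 at -N, and 548, 686 and 780 in +N shoots of WT, against 83, 48 and 74 at -N, a difference of -2.75 (SE 0.28, adjusted p = 8.99e-05). A senescence regulator gene, Solyc11g069450.1, fell at +N in sdg33 shoots, with 1281, 1008 and 747 at +N, against 2619, 2192 and 1880 at -N. WT shoots had 372, 510 and 508 at +N, against 172, 140 and 436 at -N. They were higher at +N on average, but the -N library at 436 lay above the +N library at 372. For this gene the difference between sdg33 and WT of -2.22 (SE 0.46, adjusted p = 0.0258) was lost without any 1 of 6 of the 12 libraries.

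**Figure D4:**
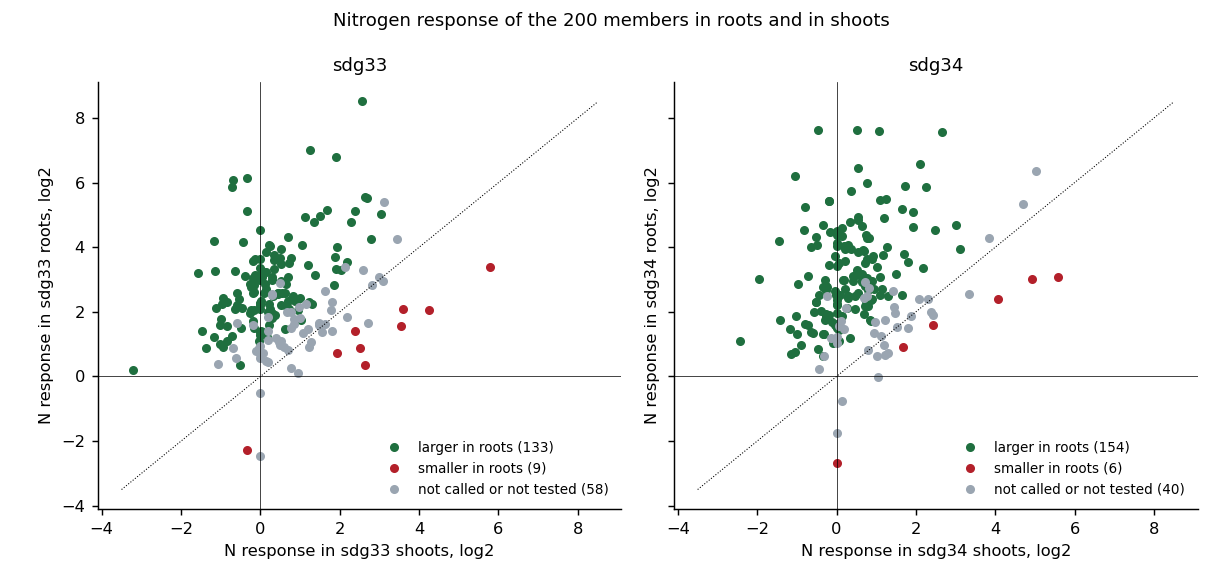
Log2 difference of +N minus -N of each member in shoots (x axis) and roots (y axis) of sdg33 and of sdg34. Colours mark members whose root and shoot responses differed (adjusted p below 0.05), and the dotted line marks equal responses. Most coloured points lie above the line, 133 in sdg33 and 154 in sdg34, which is in part built in, as members were chosen on WT roots.

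The response to N was larger in roots than in shoots of the same mutant for most members. In sdg33 it was larger for 133 of 199 members tested and smaller for 9, against 12% and 11.4% of all genes tested, with a median difference of 1.97. In sdg34 it was larger for 154 and smaller for 6, against 15.2% in either direction, with a median of 2.20. In both mutants it was larger for 125 members, against 8.22% of all genes tested. Solyc09g072750.2 had the largest excess among the members in both mutants. In +N shoots it had 2096, 2584 and 2804 in sdg33 and 3784, 3324 and 3237 in sdg34, and in -N shoots 3786, 4107 and 4124 in sdg33 and 5452, 5158 and 3808 in sdg34. Its shoot level was thus high at both conditions, while -N roots were near 0, and the response in roots exceeded that in shoots by 6.77 in sdg33 (SE 0.52, adjusted p = 1.11e-08) and by 8.09 in sdg34 (SE 0.52, adjusted p = 4.52e-10). In the gene for the nitrate transporter the excess was 5.75 in sdg33 (SE 0.54, adjusted p = 2.37e-07) and 6.52 in sdg34 (SE 0.54, adjusted p = 1.98e-08). The heat-shock gene Solyc08g062450.1 reached 7.23 in sdg34 (SE 0.81, adjusted p = 9.52e-07) and 3.02 in sdg33 (SE 0.81, adjusted p = 0.01). A value of 0 in all shoots also gives an excess, as for Solyc04g055150.1 at rank 8, which had 648, 966 and 914 in +N roots of sdg33, against 33, 45 and 28 at -N, and 0 in each of the 18 shoot libraries.

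Smaller in roots than in shoots was the response of 11 members in at least 1 mutant. Solyc01g108710.3 was among them in both, by -2.39 in sdg33 (SE 0.67, adjusted p = 0.0127) and by -2.50 in sdg34 (SE 0.67, adjusted p = 0.00708). ETHYLENE INSENSITIVE 3-like 3 had 99, 214 and 172 in +N shoots of sdg33, against 20, 27 and 26 at -N, and the difference of its root and shoot responses in sdg33 was -2.28 (SE 0.44, adjusted p = 0.00071). Adenylyl-sulfate reductase differed by -1.98 in sdg33 (SE 0.21, adjusted p = 8.39e-07). Non-symbiotic hemoglobin 1 had 495, 376 and 594 in +N shoots of sdg34, against 19, 39 and 29 at -N, and its response in roots was smaller by 1.68 (difference -1.68, SE 0.49, adjusted p = 0.0127). Its levels stood the other way, with 7286 to 47455 in roots of sdg34 and 19 to 594 in shoots of sdg34.

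**Figure D5:**
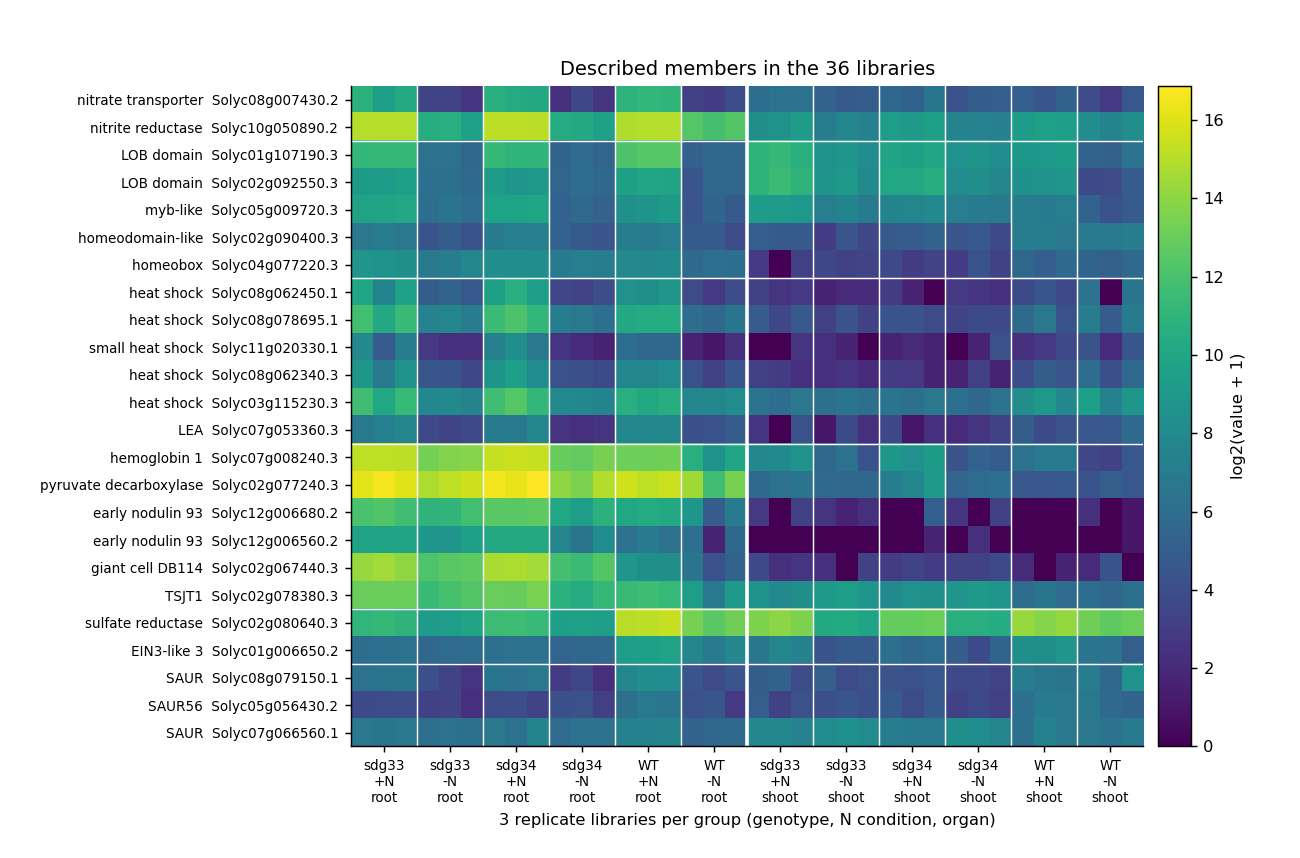
Log2(value + 1) of 24 described members (lines of the map, in blocks) in the 36 libraries, 3 per group, roots left and shoots right of the wide white line, with mutants left of WT and +N left of -N. The block from hemoglobin 1 to TSJT1 was picked after the values had been seen, and whether its genes share a role was not tested. Brighter colours are higher values. The early nodulin 93 and DB114 genes are low in shoots of all genotypes, and adenylyl-sulfate reductase is darker in mutant roots than in WT roots.

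By position, members were found on all 12 chromosomes, from 8 on chromosome 11 to 27 on chromosome 1, where 13.5% of members and 12.6% of expressed genes lie. Members were joined into a run if no more than 1 listed gene lay between them in the order of gene numbers. This tied 28 members into 13 runs. The same count was not made for other sets of genes, so nothing is read from it. The run of Solyc04g055130.1, Solyc04g055140.1 and Solyc04g055150.1 on chromosome 4 ranked 19, 11 and 8. In +N roots of sdg33 Solyc04g055140.1 had 563, 950 and 760, against 36, 84 and 65 at -N, and in +N roots of sdg34 513, 498 and 803, against 70, 112 and 52 at -N. Solyc04g055130.1, described as a C2 domain protein, had 182, 288 and 231 in +N roots of sdg33, against 40, 56 and 46 at -N, and was 0 in all shoots. All 3 genes of the run were at 2 or below in every shoot library. Whether neighbours with like sequences share reads was not tested, as the sources used here do not give how reads with several matches were counted.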

How the data were processed

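Reads had been trimmed, mapped with BBmap to tomato build 3.0 and counted with featureCounts on ITAG3.2 gene models and miRBase loci. The deposited values are whole-number scores, made by the authors from counts by full-quantile normalization across the 36 libraries, so that each library has the same sorted values and total, and depth per library is unknown. Groups came from the sample labels. The members and gene lists were chosen with earlier results of these data known. Contrasts were fitted to log2(value + 1) with limma 3.58.1 (lmFit, eBayes with a trend) in R 4.3.3, on genes that reached 10 in 3 or more libraries of each fit, and p-values were adjusted after Benjamini-Hochberg over all genes tested, with calls at an adjusted p under 0.05. Folds on this scale understate the change of low genes. WT root libraries, which chose the members, entered no test: root tests used the 12 mutant libraries, shoot responses the 18 shoot libraries, and shoot comparisons with WT 12 libraries each. The comparison of roots with shoots, on 24 mutant libraries, was added after the data had been seen. Count models were not used because the values are not raw counts. The fits were tested on simulated data. Named are members that the study names, the 10 of largest WT root difference, those of the nitrogen, reductant and carbon, LBD and glutaredoxin lists, the 3 largest called members per contrast and direction (all, and described), and the genes around the limit of rank 200. Genes named outside this rule were chosen after their values had been seen. Alternatives were other pseudocounts, filters, sample sets and a replicate block, the fit without a variance trend, and leaving out each library. The reductant and carbon and the glutaredoxin lists, with 13 and 12 described genes, held 0 members.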

Additional observations from a re-analysis of the deposited data

Results flagged for a closer look

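The following members responded to N unlike in a second group, by a test of the difference itself. Between the mutants, the root response in sdg34 exceeded that in sdg33 for 3 members, among them Solyc06g072210.1 by 4.68 and Solyc02g083730.3 by 2.07.

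Between sdg33 and WT shoots the response differed for 3 members upward and 6 downward, with 2.41 for adenylyl-sulfate reductase (Solyc02g080640.3), 1.46 for Solyc03g115990.2, -2.22 for Solyc11g069450.1 and -1.88 for the LBD37 homolog Solyc02g092550.3. Between sdg34 and WT shoots it differed for 6 upward and 11 downward, with 3.51 for Solyc09g064910.1, 1.51 for Solyc03g083440.3, -3.43 for Solyc10g083320.2 and -2.75 for Solyc01g080020.2. Solyc09g064910.1 had 62, 74 and 54 in +N shoots of sdg34, against 2, 0 and 2 at -N, and 32, 39 and 28 in +N shoots of WT, against 19, 8 and 10 at -N. Solyc10g083320.2 had 21, 12 and 20 in +N shoots of sdg34, against 38, 36 and 78 at -N, and 36, 22 and 85 in +N shoots of WT, against 19, 3 and 13 at -N, and its call was lost without any 1 of 8 of the 12 libraries (adjusted p from 0.0174 to 0.0985).

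Members were chosen for a rise in WT roots, so a larger response in roots than in shoots is in part built in. Between roots and shoots the response differed in sdg33 for 133 members upward and 9 downward, with 6.77 for Solyc09g072750.2, 6.57 for Solyc06g066710.1, -2.39 for Solyc01g108710.3 and -2.28 for Solyc01g006650.2. In sdg34 it differed for 154 upward and 6 downward, with 8.09 for Solyc09g072750.2, 7.23 for Solyc08g062450.1, -2.69 for Solyc01g104820.3 and -2.50 for Solyc01g108710.3. Solyc01g104820.3 did not exceed 1 in any shoot library, so its difference is that of its fall in roots.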

How the results depend on the processing

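Of 286 recomputed counts of members, 254 stayed within 1.5 times the reported count and 32 moved; of 2785 values for named genes, 2627 kept their call, 158 lost it (115 of these without 1 library) and 0 changed direction. Members lower in roots became 2 in sdg33 and 2 in sdg34 with no filter or with 18 root libraries, and 2 in sdg34 with a minimum mean of 100. The sdg34 minus sdg33 root response was larger for 5 with 18 root libraries. In sdg34 against sdg33 roots, 1 was higher with no filter, at least 10 in every library, a pseudocount of 0.1, no variance trend or a minimum log2 difference of 1, and 5 were lower with at least 10 in every library or no trend, and 3 with the minimum difference. In sdg33 against WT shoots 34 were higher with at least 10 in every library. The sdg33 minus WT shoot response was larger for 7 (pseudocount 10) or 5 (18 shoot libraries), and smaller for 3 with no filter, 1 with no trend and 10 with 18 shoot libraries. The minimum difference of 1 left 32 higher and 30 lower in sdg34 against WT shoots, and 2 lower at +N in sdg34 and 2 in WT shoots. The sdg34 minus WT shoot response was larger for 10 (pseudocount 10). With the 6 libraries of 1 genotype, 9 were lower in sdg34 shoots and 3 in WT shoots. With at least 10 in every library, root and shoot responses differed for 75 upward and 4 downward in sdg33 and for 88 and 3 in sdg34.

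With a replicate block, 3 members had a smaller shoot response in sdg33 than in WT, in place of 6, and no other count moved by over 1.5 times. Within roots and within shoots, same-numbered libraries did not deviate together (correlations from -0.14 to 0.26), so the numbers were not taken as pairs. Root libraries were not correlated with shoot libraries of the same number. Whether these pair in the comparison of roots with shoots was therefore not checked in this way.

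Leaving out 1 library at a time gave these ranges. Lower in sdg34 roots were 1 to 2. Larger in sdg34 than in sdg33 roots were 2 to 22 and smaller 0 to 1. In sdg34 against sdg33 roots 0 to 4 were higher and 5 to 13 lower. The sdg33 minus WT shoot response was larger for 2 to 5 and smaller for 1 to 8, and the sdg34 minus WT response smaller for 7 to 14. Lower at +N were 3 to 9 in sdg33 shoots, 2 to 6 in sdg34 shoots and 4 to 14 in WT shoots.

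The limits are 3 pools per group, 1 line per mutant, a common scale that hides depth and caps the highest gene, and low values of many members in shoots.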

Other observations

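A set of 6 members, hemoglobin 1, pyruvate decarboxylase, both early nodulin 93 genes, DB114 and TSJT1, was put together after their values had been seen, so it has no test. Its mean log2(value + 1) in +N roots was 13.42, 13.59 and 13.33 in sdg33 and 13.74, 13.72 and 13.85 in sdg34, against 10.91, 10.96 and 10.82 in WT. In -N roots it was 11.94, 12.21 and 12.62 in sdg33 and 11.25, 10.69 and 11.83 in sdg34, against 9.34, 6.36 and 8.40 in WT. The WT library at 6.36 is replicate 2, the lowest by at least 1 log2 unit in 26 members, a count in part built in by the choice. The part of this library in the WT differences of these 6 genes was not tested.

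The 5 heat-shock members averaged 6.67, 3.69 and 6.54 in -N shoots of WT on the same scale, so that replicate 2 lay below the others. Replicate 2 of these shoots was the lowest of its group by at least 1 log2 unit in 25 members, against 3.22% of all expressed genes. Replicate 3 stood apart more often over all expressed genes, lowest in 6.22% and highest in 4.07%. Among the members it was lowest in 12 and highest in 20.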
